A study of Mus musculus with 24 samples.

Results

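Matricellular and provisional matrix genes were followed in 2 cell types of regenerating mouse muscle. They encode proteins laid down or secreted into the matrix around cells: fibronectin (Fn1) and versican (Vcan), tenascin C (Tnc), thrombospondin 1 and 2 (Thbs1, Thbs2), Sparc, and the microfibril-associated proteins Mfap4 and Mfap5. The members were listed by symbol and taken from the array by the symbol annotated to a probe set. Of 9 listed genes 8 were found, each with 1 probe set, and all 8 were among the 14064 genes tested of 23279 named. The other, Spp1 (osteopontin), was not analysed here.

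The arrays hold satellite cells, which are muscle stem cells, and endothelial cells, which line its vessels. Both were sorted by flow cytometry from the mouse tibialis anterior, uninjured (day 0) and 2, 4 and 8 days after cardiotoxin, a venom toxin that destroys muscle fibres. All cells were negative for CD45, the common surface protein of leukocytes. The satellite sort took Sca1-negative, CD31-negative cells that carried alpha7-integrin and had positive or low CD34, and the endothelial sort took cells positive for Sca1, CD34 and CD31. Each of the 8 groups had 3 arrays, named as biological replicates. No treatment other than cardiotoxin is given, and strain, age, sex and the number of mice per array are not given in the sources used here. Levels are the authors' log2 values, so that a difference of 1 is a doubling, and the bulk of each array lay near its median of 4.11 to 4.40.

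When muscle fibres die, plasma and local cells lay down a loose, temporary matrix of fibronectin, hyaluronan and versican that carries cells until collagen and basement membrane are rebuilt. Matricellular proteins such as tenascin C, the thrombospondins and Sparc are secreted into that matrix but act mainly on cells, through integrins, syndecans and CD47, rather than as a scaffold. Fibronectin and tenascin C are known from the niche of activated satellite cells. Thrombospondins 1 and 2 are known as inhibitors of vessel growth that act on endothelial cells through CD36. Mfap4 and Mfap5 bind fibrillin microfibrils, the scaffold of elastic fibres.

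Promoter sequences are shown for 3 members, so that the start-site region of genes that rose in both sorts after injury (Tnc and Vcan) can be set beside that of one that fell in satellite cells (Thbs2). Of the 8 members, 4 (Tnc, Sparc, Thbs2 and Vcan) had an entry in the RefSeq promoter table (build GRCm38.p6). Each sequence below is the 250 bases before the start site, 5′ to 3′ on the gene's own strand, and all 3 genes lie on the minus strand. Capitals mark matches to a motif searched on both strands. Tnc has 2 overlapping windows in that table, and the upstream one is shown.
Tnc, chr4:64047016-64047265: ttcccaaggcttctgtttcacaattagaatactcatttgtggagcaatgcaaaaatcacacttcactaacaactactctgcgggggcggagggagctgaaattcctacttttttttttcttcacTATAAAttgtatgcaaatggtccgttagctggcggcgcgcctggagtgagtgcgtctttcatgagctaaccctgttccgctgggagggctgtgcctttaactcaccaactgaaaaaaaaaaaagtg
Vcan, chr13:89742513-89742762: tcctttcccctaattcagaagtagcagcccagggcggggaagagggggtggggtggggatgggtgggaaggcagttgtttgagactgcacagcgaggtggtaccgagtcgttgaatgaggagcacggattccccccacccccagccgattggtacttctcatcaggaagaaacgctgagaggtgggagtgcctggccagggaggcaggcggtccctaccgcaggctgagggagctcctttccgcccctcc
Thbs2, chr17:14694263-14694512: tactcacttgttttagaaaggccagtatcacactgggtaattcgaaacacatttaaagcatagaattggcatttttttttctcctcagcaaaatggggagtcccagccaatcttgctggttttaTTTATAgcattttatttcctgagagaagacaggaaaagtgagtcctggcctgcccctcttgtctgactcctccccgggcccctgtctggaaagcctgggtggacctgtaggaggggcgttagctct
The capitals in Tnc are TATAAA, the TATA box letters, starting at position -126 from the start site, and those in Thbs2 are the same motif on the other strand, also at position -126. The second Tnc window holds the same match. TATAAA or its complement was present in 3 of the 5 windows of members, those of Tnc and Thbs2, against 12.4% of 32851 promoters of the same length. The 2 Tnc windows share the same site, which is counted in each. CAGCTG, an E-box bound by myogenic factors, was present only in the window of Sparc, against 13.0% of promoters. Neither TGACTCA, the AP-1 motif (4.46% of promoters), nor GGAATG, the TEAD motif (12.6%), was present in any of the 5 windows. These matches describe the letters of the windows and nothing more.

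The sorted cells were checked against their defining markers, and the day 2 arrays labelled satellite went against that label. The mean of 9 satellite cell markers in the satellite sort was 8.33 ± 0.13 (SD, n = 3) on day 0, 5.29 ± 0.16 on day 2, 7.52 ± 0.24 on day 4 and 7.73 ± 0.38 on day 8, against means of 4.30 to 4.76 in the endothelial sort. Pax7, the transcription factor of satellite cells, was at 9.28 ± 0.52 on day 0 and 5.17 ± 0.51 on day 2, where its range overlapped that of the endothelial arrays, while Itga7, the integrin gene of the sort, was at 6.37 ± 0.32 against 4.76 ± 0.31 in endothelial cells. The mean of 15 leukocyte markers moved the other way, from 4.08 ± 0.33 on day 0 to 9.65 ± 0.94 on day 2, 7.99 ± 0.60 on day 4 and 6.75 ± 0.86 on day 8. On day 2 all 15 of these markers rose, Ptprc, the gene of CD45, among them, at 9.17 ± 1.01 against 2.97 ± 0.16 on day 0. The mean of 5 neutrophil markers was 8.54 ± 0.62 on satellite day 2 and 5.50 ± 0.91 on endothelial day 2, and from 2.93 to 3.86 in the other 6 groups. Endothelial arrays kept their own 9 markers at means of 9.78 to 10.07, while their leukocyte mean went from 4.10 ± 0.07 to 6.82 ± 1.24, 7.50 ± 1.09 and 5.67 ± 0.49. Day 2 satellite replicate 2 stood apart, with 10.28, 8.57 and 10.10 for leukocyte and 6.69, 8.77 and 7.17 for endothelial markers on replicates 1, 2 and 3. Markers of pericytes and smooth muscle fell in the satellite sort, from 10.02 ± 0.40 on day 0 to 7.06 ± 0.94, 7.21 ± 0.15 and 8.92 ± 0.32, with 9, 7 and 3 of 9 passing the test, and in the endothelial sort, from 7.34 ± 0.48 to 6.06 ± 0.61, 5.97 ± 0.71 and 6.10 ± 0.12, with 3, 4 and 3 of 9. Endothelial markers in the satellite sort went from 6.33 ± 0.09 on day 0 to 7.54 ± 1.09, 7.22 ± 0.40 and 7.72 ± 0.57, and 5, 4 and 5 of 9 rose. The part of these cells in the members' changes was not tested. Results on satellite cells at day 2 are therefore those of the arrays labelled so. Comparisons that do not use these arrays numbered 13, and all 38 calls in them kept their side of the threshold when the 3 arrays were left out of the fit. Leaving them out cannot change those log2 differences, only the shared estimate of the spread, the filter and the adjustment. It therefore does not bear on other cells in the remaining arrays.

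**Figure D1:**
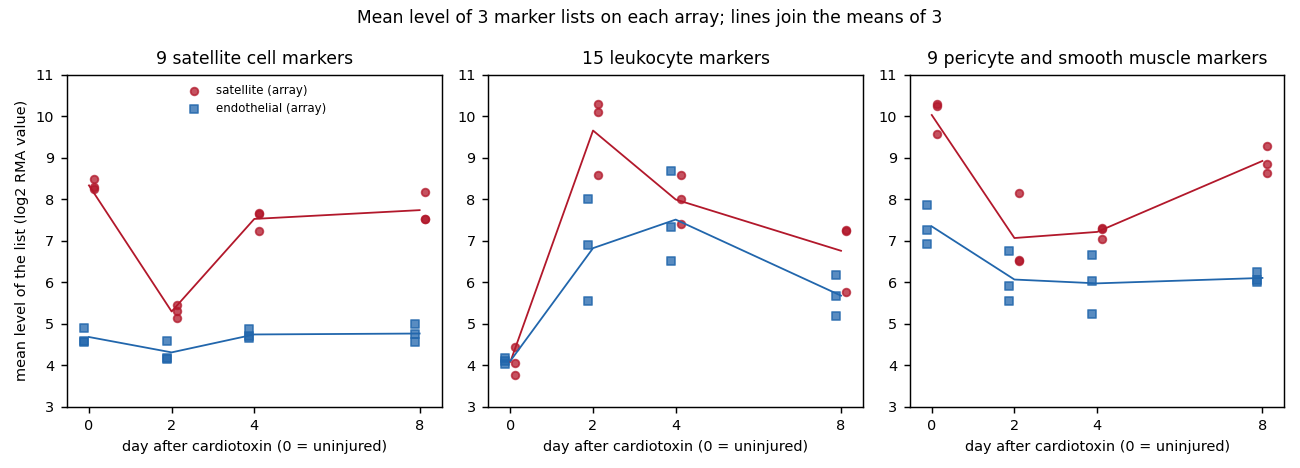
Mean log2 RMA level of satellite cell, leukocyte, and pericyte and smooth muscle marker lists (y axis) on each array by day after cardiotoxin (x axis), for satellite (circles) and endothelial (squares) sorts, with lines through the means of 3 arrays. On day 2 the satellite sort is near the endothelial sort for satellite cell markers and has its highest leukocyte mean, 9.65.

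In the satellite sort 4 of the 8 members rose and 2 fell by day 2, and Mfap4 rose by day 4. A gene was called when its limma adjusted p was under 0.05 and its log2 difference at least 1 in size, and the words rose and fell are kept for called genes. On day 2 Fn1, Vcan, Tnc and Thbs1 rose, 4 of 8 members against 10.9% of all genes tested, and Thbs2 and Mfap5 fell, 2 of 8 against 9.67%. On day 4 the same 4 genes and Mfap4 rose, 5 of 8 against 6.53% of all genes, and Thbs2 fell, 1 of 8 against 5.47%. On day 8 Fn1, Vcan, Tnc and Mfap4 were still above day 0, 4 of 8 against 4.38%, and Mfap5 was below it, 1 of 8 against 2.00%. The median log2 difference of the 8 members from day 0 was 0.63 on day 2, 1.90 on day 4 and 1.53 on day 8, against -0.03, 0.01 and -0.01 over all genes. Between days 2 and 4 Mfap4 rose and Thbs1 fell, 1 of 8 each way against 4.79% higher and 5.76% lower of all genes. From day 4 to day 8 none of the 8 was called, against 1.16% higher and 0.519% lower, while 2 had an unadjusted limma p under 0.05, Vcan on the lower side and Mfap4 on the higher.

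In endothelial cells every call on the members was a rise. On day 0 Tnc, Thbs2, Vcan, Mfap4 and Mfap5 had means of 4.03, 3.73, 4.10, 3.24 and 4.14 there. These lay near or under the array medians, which left those genes little room to fall. Tnc, Thbs1 and Vcan rose on day 2, 3 of 8 members against 3.73% of all genes, and none fell against 3.01%. On day 4 Mfap4 was added, 4 of 8 against 3.11%, with none lower against 2.22%. By day 8 Tnc and Mfap4 remained above day 0, 2 of 8 against 1.11%, with none lower against 0.946%. The median of the 8 members was 0.73, 1.61 and 1.12 on days 2, 4 and 8, against -0.01, -0.02 and 0.00 over all genes. From day 2 to day 4 Mfap4 alone passed, 1 of 8 against 0.263% higher and 0.107% lower. Nothing was called from day 4 to day 8, where 0.0284% of all genes were higher and 0.0924% lower, and 3 members, Tnc, Thbs1 and Vcan, had an unadjusted limma p under 0.05, all on the lower side.

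**Figure D2:**
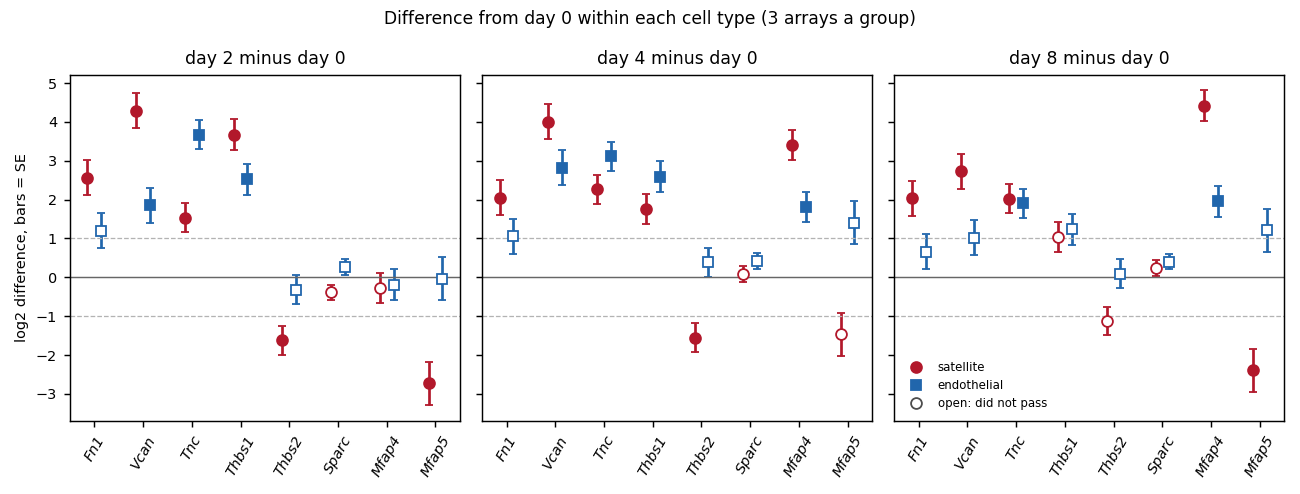
Log2 difference from day 0 (y axis) of each member (x axis) on days 2, 4 and 8, for satellite (circles) and endothelial (squares) sorts, with bars for the SE of the fit, filled symbols for calls and open ones for the rest. Thbs2 and Mfap5 lie below 0 in satellite cells on all 3 days, and the rise of Mfap4 in satellite cells grows to 4.42 on day 8.

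Fibronectin, a first scaffold of a wound, rose in the satellite sort and stayed high to day 8. Satellite arrays read Fn1 at 7.43, 7.53 and 7.15 on day 0, at 10.43, 8.96 and 10.42 on day 2, at 9.22, 9.39 and 9.62 on day 4, and at 9.29, 9.40 and 9.53 on day 8. The 3 day 0 values lay close together and below every later array, and replicate 2 of day 2 lay under the other 2 arrays of that day. Its log2 difference from day 0 was 2.57, SE 0.45, adjusted p = 1.71e-04 by limma on day 2, a 5.93-fold rise, then 2.04, SE 0.45, adjusted p = 0.00289 on day 4 and 2.04, SE 0.45, adjusted p = 0.00549 on day 8. Endothelial arrays read Fn1 at 8.23, 7.20 and 5.70 on day 0, at 8.54, 8.26 and 7.94 on day 2, at 8.48, 8.12 and 7.69 on day 4, and at 8.07, 7.85 and 7.20 on day 8. Their day 0 values were spread over more than 2 log2 units and reached those of the later days, so that the groups overlapped. None of the 3 endothelial differences passed, with 1.20, SE 0.45, adjusted p = 0.107 on day 2, 1.06, SE 0.45, adjusted p = 0.194 on day 4 and 0.66, SE 0.45, adjusted p = 0.592 on day 8. Single day 0 arrays moved this result both ways. Without endothelial day 0 replicate 1, the highest of its group at 8.23, the difference was 1.80 on day 2 (adjusted p = 0.0147) and 1.65 on day 4 (adjusted p = 0.0273), both past the threshold. Without replicate 3, the lowest at 5.70, it was 0.53 on day 2 and 0.38 on day 4, and neither passed.

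Versican, the large proteoglycan that binds hyaluronan, had the largest day 2 difference of the 8 in satellite cells. Satellite arrays read Vcan at 4.76, 4.10 and 4.24 on day 0, at 9.53, 7.17 and 9.26 on day 2, at 7.85, 8.54 and 8.73 on day 4, and at 7.03, 6.68 and 7.57 on day 8. On day 0 the values lay near the array medians and below every later array, and replicate 2 of day 2 was more than 2 log2 units under its 2 companions. The differences were 4.29, SE 0.46, adjusted p = 4.74e-07 on day 2, 4.01, SE 0.46, adjusted p = 3.05e-06 on day 4 and 2.73, SE 0.46, adjusted p = 4.44e-04 on day 8, sizes that the low day 0 level limits. Endothelial arrays read Vcan at 3.75, 4.47 and 4.08 on day 0, at 6.14, 6.47 and 5.24 on day 2, at 6.48, 7.07 and 7.23 on day 4, and at 5.22, 4.87 and 5.29 on day 8. Here the level was highest on day 4 and no array of days 2 to 8 overlapped day 0. It rose by 1.85, SE 0.46, adjusted p = 0.0133 on day 2 and 2.82, SE 0.46, adjusted p = 4.25e-04 on day 4, and the day 8 difference was 1.02, SE 0.46, adjusted p = 0.317. The endothelial day 2 call was lost without endothelial day 0 replicate 1, day 2 replicate 1 or day 2 replicate 2, with adjusted p from 0.0526 to 0.0731. From day 4 to day 8 the limma difference was -1.28, SE 0.46, adjusted p = 0.193 in satellite and -1.80, SE 0.46, adjusted p = 0.151 in endothelial cells, and neither passed. Both passed when satellite day 2 replicate 2 was left out of the fit (adjusted p = 0.0397 and 0.0176). That array is in neither comparison, so the differences themselves did not change.

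Leukocyte markers were read beside Fn1 and Vcan, and the orders of the arrays matched in some groups and not in others. In the 3 day 2 satellite arrays, replicate 2 had the lowest leukocyte mean (8.57 against 10.28 and 10.10) and also the lowest Fn1, Vcan and Thbs1. On satellite day 4 the order was the reverse. Leukocyte means were 8.58, 7.99 and 7.39, with Fn1 at 9.22, 9.39 and 9.62 and Vcan at 7.85, 8.54 and 8.73. In endothelial cells on day 4 the leukocyte means were 8.67, 7.34 and 6.51, while Vcan was at 6.48, 7.07 and 7.23. There too the array with the highest leukocyte mean had the lowest Vcan. Fn1, at 8.48, 8.12 and 7.69 on these endothelial arrays, had the same order as the leukocyte means. On day 8 the satellite leukocyte means were 7.24, 5.76 and 7.26 and the Fn1 values 9.29, 9.40 and 9.53, which differed by less than 0.25 while the marker means differed by over 1. Vcan on these satellite arrays, at 7.03, 6.68 and 7.57, had the same order as the leukocyte means. The part of other cells in these rises was not tested, and in sorted bulk RNA fewer cells of a type and less RNA per cell cannot be told apart.

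Tenascin C, a matricellular protein of injured tissue that loosens adhesion to fibronectin, rose in both sorts. Endothelial arrays read Tnc at 4.34, 3.54 and 4.22 on day 0, at 7.76, 7.94 and 7.41 on day 2, at 7.16, 7.19 and 7.10 on day 4, and at 6.06, 5.85 and 5.89 on day 8. The level went from the array medians to its highest point on day 2, and no group overlapped the next in order. The endothelial day 2 rise was 3.67, SE 0.38, adjusted p = 3.29e-06, from a day 0 level above the median on 1 of 3 arrays, followed by 3.12, SE 0.38, adjusted p = 2.17e-05 on day 4 and 1.90, SE 0.38, adjusted p = 0.00701 on day 8. Without endothelial day 0 replicate 2 the day 8 difference was 1.65 and no longer passed (adjusted p = 0.0559). Satellite arrays read Tnc at 5.61, 6.59 and 5.81 on day 0, at 7.58, 8.37 and 6.66 on day 2, at 7.38, 8.45 and 8.97 on day 4, and at 7.94, 7.99 and 8.16 on day 8. All 9 later arrays lay above the 3 of day 0, while days 2 and 4 overlapped. From day 2 to day 4 the limma difference was 0.73, SE 0.38, adjusted p = 0.235 and did not pass. It passed without satellite day 2 replicate 2 or satellite day 4 replicate 1, at 1.15 to 1.17 (adjusted p 0.0378 to 0.0405). Satellite Tnc rose by 1.53, SE 0.38, adjusted p = 0.00394, or 2.89-fold, on day 2, by 2.26, SE 0.38, adjusted p = 2.17e-04 on day 4 and by 2.03, SE 0.38, adjusted p = 0.00129 on day 8. On endothelial day 2 the leukocyte means were 8.01, 5.54 and 6.89. Replicate 2, the lowest, had the highest Tnc, but replicate 3 and not replicate 1 had the lowest. Satellite day 2 replicate 2, lowest in leukocyte and highest in endothelial markers, also had the highest Tnc of its day. The lowest Tnc there was on replicate 3, with leukocyte means of 10.28, 8.57 and 10.10 on the 3 arrays. The part of other cells was not tested.

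Thrombospondin 1, which activates latent TGF-beta and restrains vessel growth, was highest on satellite day 2 and declined after it. Satellite arrays read Thbs1 at 5.59, 6.21 and 6.90 on day 0, at 10.51, 8.94 and 10.28 on day 2, at 7.80, 7.92 and 8.26 on day 4, and at 7.62, 6.88 and 7.32 on day 8. Every day 2 array lay above every other satellite array, and days 0 and 8 overlapped. The rise was 3.67, SE 0.39, adjusted p = 5.45e-07 on day 2, or 12.7-fold, and 1.76, SE 0.39, adjusted p = 0.00329 on day 4, and the fall from day 2 to day 4 was -1.91, SE 0.39, adjusted p = 0.00205. By day 8 the difference from day 0 was 1.04, SE 0.39, adjusted p = 0.113 and did not pass. Endothelial arrays read Thbs1 at 4.74, 5.32 and 5.72 on day 0, at 8.46, 7.27 and 7.63 on day 2, at 7.76, 8.07 and 7.71 on day 4, and at 6.18, 6.92 and 6.37 on day 8. Days 2 and 4 overlapped each other and lay above days 0 and 8. Endothelial Thbs1 rose by 2.53, SE 0.39, adjusted p = 3.56e-04 on day 2 and 2.59, SE 0.39, adjusted p = 2.35e-04 on day 4, 5.76-fold and 6.01-fold, and was 1.23, SE 0.39, adjusted p = 0.114 on day 8. Across the 3 endothelial day 2 arrays Thbs1 (8.46, 7.27 and 7.63) had the same order as the leukocyte means (8.01, 5.54 and 6.89). It also had their order on satellite day 2 (10.28, 8.57 and 10.10). On satellite day 4 it had the reverse order (leukocyte means 8.58, 7.99 and 7.39). On endothelial day 4 the orders differed (leukocyte means 8.67, 7.34 and 6.51). The part of leukocytes was not tested.

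Thrombospondin 2, a relative of Thbs1 made mainly by fibroblasts, fell in satellite cells while Thbs1 rose. Satellite arrays read Thbs2 at 7.48, 7.09 and 6.40 on day 0, at 4.86, 5.76 and 5.49 on day 2, at 4.72, 6.29 and 5.32 on day 4, and at 5.43, 6.29 and 5.88 on day 8. The 3 uninjured arrays lay above all 9 injured ones. It fell by 1.62 on day 2 (log2 difference -1.62, SE 0.37, adjusted p = 0.00209) and by 1.55 on day 4 (-1.55, SE 0.37, adjusted p = 0.00532), 3.07-fold and 2.93-fold. On day 8 the difference was -1.13, SE 0.37, adjusted p = 0.0630 and did not pass, although it did without satellite day 0 replicate 3 or day 4 replicate 1 or 2, at -1.42 to -1.13 (adjusted p 0.0343 to 0.0424). Endothelial arrays read Thbs2 from 3.11 to 4.40 on all 4 days, at or under the array medians on 11 of 12 arrays, and no endothelial difference passed. Pericyte and smooth muscle markers were lower beside Thbs2, at satellite means of 7.06, 7.21 and 8.92 on days 2, 4 and 8 against 10.02 on day 0. On days 2, 4 and 8 both these markers and Thbs2 were highest on replicate 2 and lowest on replicate 1. On day 0 their orders differed. Fibro-adipogenic markers, of fibroblast-like cells, had satellite means of 6.31, 5.69, 6.23 and 6.84 on days 0, 2, 4 and 8. Thbs2 had the order of the fibro-adipogenic mean on days 2 and 8 only. The part of these cells was not tested.

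Sparc, a collagen-binding protein abundant in vessels and muscle, was the 1 member with no call in any of the 17 comparisons. Its values ran from 10.82 to 12.17 over the 24 arrays in a table whose highest value was 12.9. Endothelial means were 11.68 ± 0.08, 11.94 ± 0.06, 12.10 ± 0.01 and 12.09 ± 0.07 on days 0, 2, 4 and 8. Satellite means were 11.68 ± 0.07, 11.29 ± 0.57, 11.77 ± 0.06 and 11.92 ± 0.03, and the wide day 2 spread came from 10.82, 11.92 and 11.13, with replicate 2 again apart. All 17 log2 differences lay between -0.65 and 0.48, and their 95% intervals between -1.24 and 0.89. The difference between the sorts on day 2, -0.65, SE 0.20, adjusted p = 0.0298, was past the adjusted p but under the size of 1.

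Mfap4, a fibrinogen-related protein of microfibrils, rose late and steeply. Satellite arrays read Mfap4 at 4.25, 4.40 and 4.08 on day 0, at 3.26, 4.30 and 4.34 on day 2, at 6.51, 7.94 and 8.48 on day 4, and at 9.22, 8.41 and 8.36 on day 8. Days 0 and 2 lay near or under the array medians, days 4 and 8 were above them by 2 or more log2 units, and the last 2 days overlapped. Differences from day 0 were -0.28, SE 0.39, adjusted p = 0.664 on day 2, 3.40, SE 0.39, adjusted p = 3.84e-06 on day 4 and 4.42, SE 0.39, adjusted p = 2.64e-07 on day 8. As the level on days 0 and 2 was near or under the array medians, these sizes are limited by background, as are those of endothelial Mfap4. From day 2 to day 4 Mfap4 rose by 3.68, SE 0.39, adjusted p = 1.35e-06. Endothelial arrays read Mfap4 at 2.97, 3.77 and 2.99 on day 0, at 3.16, 2.85 and 3.13 on day 2, at 5.56, 4.65 and 4.95 on day 4, and at 5.36, 5.15 and 5.08 on day 8. The same break lay between days 2 and 4, and no later array overlapped the earlier ones. Endothelial Mfap4 rose by 1.81, SE 0.39, adjusted p = 0.00606 on day 4 and 1.96, SE 0.39, adjusted p = 0.00789 on day 8 against day 0. From day 2 to day 4 it rose by 2.01, SE 0.39, adjusted p = 0.0190, a call lost without any of the 3 endothelial day 2 arrays or endothelial day 4 replicate 1 or 3 (adjusted p 0.0505 to 0.0950).

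Mfap5, which binds fibrillin and Notch ligands, was high in the uninjured satellite sort and lower after injury. Pericyte and smooth muscle markers also had their highest mean of that sort on day 0, at 10.02, and their part was not tested. Satellite arrays read Mfap5 at 7.85, 8.94 and 8.73 on day 0, at 4.98, 6.03 and 6.34 on day 2, at 5.72, 7.40 and 8.00 on day 4, and at 5.38, 6.63 and 6.34 on day 8. All arrays of days 2 and 8 lay under those of day 0, and day 4 overlapped day 0. Its log2 difference was -2.73, SE 0.55, adjusted p = 7.27e-04 on day 2, a 6.62-fold fall, and -2.39, SE 0.55, adjusted p = 0.00757 on day 8, a 5.25-fold fall, the latter ranking 23 from the low end of 14064 genes. The day 4 difference was -1.47, SE 0.55, adjusted p = 0.0754, and it passed without satellite day 4 replicate 3 (-1.95, adjusted p = 0.0304) or endothelial day 8 replicate 2 (-1.47, adjusted p = 0.0486). From day 2 to day 4 the limma difference of satellite Mfap5 was 1.26, SE 0.55, adjusted p = 0.151 and did not pass. It passed when satellite day 4 replicate 1 was left out, at 1.92 (adjusted p = 0.0217). Endothelial arrays read Mfap5 at 4.31, 4.29 and 3.83 on day 0, at 4.41, 3.83 and 4.09 on day 2, at 6.00, 4.72 and 5.95 on day 4, and at 4.81, 6.59 and 4.69 on day 8. Days 4 and 8 lay above days 0 and 2, with 1 high array on day 8, and none of the differences passed, 1.41, SE 0.55, adjusted p = 0.150 on day 4 and 1.22, SE 0.55, adjusted p = 0.332 on day 8.

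Markers of fibroblast-like cells were read beside Mfap4 and Mfap5. The mean of 9 fibro-adipogenic markers in the satellite sort was 6.31 ± 0.09, 5.69 ± 0.23, 6.23 ± 0.10 and 6.84 ± 0.23 on days 0, 2, 4 and 8, and in the endothelial sort 4.20 ± 0.12, 4.07 ± 0.23, 5.10 ± 0.22 and 5.39 ± 0.31. Of the 7 tested, 1 rose and 3 fell on satellite day 2, 3 and 2 on day 4, and 3 and 1 on day 8, and in endothelial cells 0, 2 and 3 rose on days 2, 4 and 8 and 0 fell. Pdgfra, which defines these progenitors, was too low to be tested. Dpt, a fibroblast matrix gene of that list, was lower with Mfap5 on satellite day 2, going from 10.60 ± 0.32 to 5.26 ± 0.24. The list did not share this size, as the median log2 difference of its 7 tested genes was -0.15. Dpt was at 9.85 ± 0.29 on day 8, while Mfap5 was at 6.12 ± 0.66. Tendon markers, 6 genes of which 3 were tested, had a mean of 5.64 ± 0.49 on satellite day 8 against 4.14 ± 0.09 on day 0. Mfap5 went the other way, from 8.51 to 6.12. Of these 6 genes, 2, 1, 2 and 3 were above the array median on all 3 satellite arrays on days 0, 2, 4 and 8. Within each of the 4 days Mfap5 had the same order as the tendon mean over the 3 satellite arrays. On day 0 the tendon means were 4.04, 4.20 and 4.19, the last 2 nearly equal. They were 3.37, 4.28 and 4.59 on day 2, 4.10, 4.24 and 4.91 on day 4 and 5.09, 6.04 and 5.80 on day 8. Mfap5 had the same order as the fibro-adipogenic mean on days 0 and 8 only. Mfap4 had the tendon order on days 2 and 4, while on day 8 the array with the highest Mfap4, replicate 1 at 9.22, had the lowest tendon mean (5.09) and the lowest fibro-adipogenic mean (6.61). Myofibre markers, 5 genes, went from 7.66 ± 0.41 to 10.13 ± 1.45 in the satellite sort between days 0 and 8, and that array was again the lowest of day 8, at 8.46 against 10.93 and 11.01. That same array had the highest mean of satellite cell markers on day 8, at 8.17 against 7.51 and 7.52. The part of any of these cells was not tested.

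**Figure D3:**
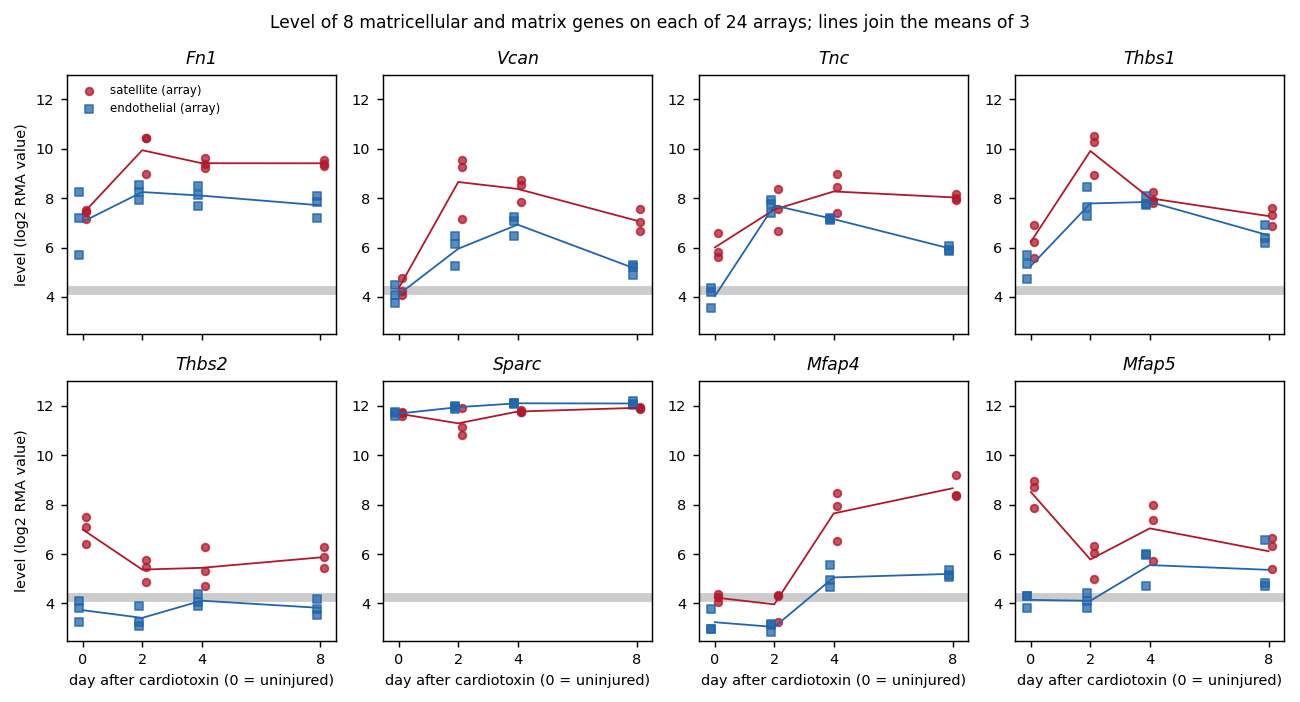
Log2 RMA level (y axis) of the 8 members on each of 24 arrays by day after cardiotoxin (x axis), for satellite (circles) and endothelial (squares) sorts, with lines through the means of 3 arrays and a grey band for the range of array medians. Within the endothelial sort Tnc and Thbs1 are higher on days 2 and 4 than on days 0 and 8, Mfap4 rises between days 2 and 4 in both sorts, and Sparc stays between 10.82 and 12.17.

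Satellite and endothelial cells of the same day were compared next, and every call on these genes was higher in the satellite sort. Members near or under the array medians in the endothelial sort had little room to be lower in the satellite sort. These were Thbs2 on all days, Mfap4 and Mfap5 on days 0 and 2, and Vcan and Tnc on day 0. On day 0 Tnc, Thbs2 and Mfap5 were higher, 3 of 8 members against 7.59% of all genes, with none lower against 9.43%. On day 2 the higher ones were Thbs1, Thbs2, Fn1, Vcan and Mfap5, 5 of 8 against 5.82%, with none lower against 6.31%. On day 4 they were Tnc, Thbs2, Fn1, Vcan and Mfap4, 5 of 8 against 5.20%, with none lower against 7.73%, and on day 8 these 5 again, against 7.05%, with none lower against 6.88%. Markers of other cells differed the same way: fibro-adipogenic markers were higher in the satellite sort for 5, 5, 4 and 5 of 7 on days 0, 2, 4 and 8, and pericyte and smooth muscle markers for 8, 1, 3 and 9 of 9. Leukocyte markers were higher for 14 of 15 on day 2 and 1 of 15 on day 8, and myofibre markers for 5 of 5 on days 2, 4 and 8, and the part of these cells was not tested. The median difference of the 8 members was 0.99, 1.68, 1.32 and 1.83 on days 0, 2, 4 and 8, against -0.01, -0.05, 0.02 and -0.03 over all genes.

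Mfap5 had the widest gap at rest and Mfap4 the widest at the end. On day 0 Mfap5 differed by 4.36, SE 0.55, adjusted p = 3.45e-06, Thbs2 by 3.26, SE 0.37, adjusted p = 8.15e-07 and Tnc by 1.97, SE 0.38, adjusted p = 4.63e-04, with no overlap between sorts for any of the 3. Fn1 and Vcan did not pass on day 0, at 0.32, SE 0.45, adjusted p = 0.687 and 0.26, SE 0.46, adjusted p = 0.757, and by day 2 were apart by 1.69, SE 0.45, adjusted p = 0.0124 and 2.70, SE 0.46, adjusted p = 3.17e-04. Thbs1 passed on day 2 and on no other day, with 2.12, SE 0.39, adjusted p = 7.45e-04. Mfap4 differed by 2.59, SE 0.39, adjusted p = 6.27e-05 on day 4 and 3.46, SE 0.39, adjusted p = 2.27e-06 on day 8, while Mfap5 was at 0.75, SE 0.55, adjusted p = 0.404 on day 8 and did not pass. On day 8 Tnc was 4.27-fold higher in satellite cells (2.10, SE 0.38, adjusted p = 3.68e-04) and Fn1 3.25-fold (1.70, SE 0.45, adjusted p = 0.00969), with Vcan at 1.96, SE 0.46, adjusted p = 0.00360 and Thbs2 at 2.04, SE 0.37, adjusted p = 3.75e-04.

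Several of these calls lay near the threshold. On day 4 Fn1 (1.31, SE 0.45, adjusted p = 0.0492) did not pass on leaving out 18 of the 24 arrays, all but endothelial day 0 replicates 1 and 3, the 3 of satellite day 2 and endothelial day 8 replicate 3, with adjusted p of 0.0511 to 0.178. Tnc on day 4 (1.12, SE 0.38, adjusted p = 0.0452) did not pass on leaving out 16 of 24, all but satellite day 0 replicates 1 and 2, endothelial day 0 replicates 1 and 2, satellite day 2 replicates 2 and 3, endothelial day 2 replicate 3 and satellite day 4 replicate 1, with 0.0504 to 0.230. Vcan on day 4 (1.45, SE 0.46, adjusted p = 0.0316) was lost without endothelial day 4 replicate 1 or 2 or satellite day 4 replicate 2 or 3 (0.0624 to 0.125), and Thbs2 on day 4 (1.33, SE 0.37, adjusted p = 0.0147) without satellite day 4 replicate 2 or endothelial day 4 replicate 3 (0.0621 to 0.117). Mfap5 on day 2 (1.67, SE 0.55, adjusted p = 0.0452) was lost without any 1 of 12 arrays, with 0.0505 to 0.180. These were the 3 of endothelial day 0 and the 3 of endothelial day 2, satellite day 0 replicate 3, satellite day 2 replicates 2 and 3, satellite day 4 replicate 2, endothelial day 4 replicate 3 and satellite day 8 replicate 3. Fn1 on day 2 was lost without satellite day 2 replicate 1 or 3 or endothelial day 2 replicate 3 (0.0610 to 0.0743), and on day 8 without endothelial day 8 replicate 3 (0.0577). Other differences passed on leaving out 1 array. On day 0 these were Thbs1 without satellite day 0 replicate 1 (1.30, adjusted p = 0.0351) and Mfap4 without endothelial day 0 replicate 2 or satellite day 4 replicate 1 or 3 (1.00 to 1.26, adjusted p 0.0242 to 0.0498). On day 4 it was Mfap5 without satellite day 4 replicate 1 or endothelial day 8 replicate 2 (1.49 to 2.15, adjusted p 0.00844 to 0.0450).

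**Figure D4:**
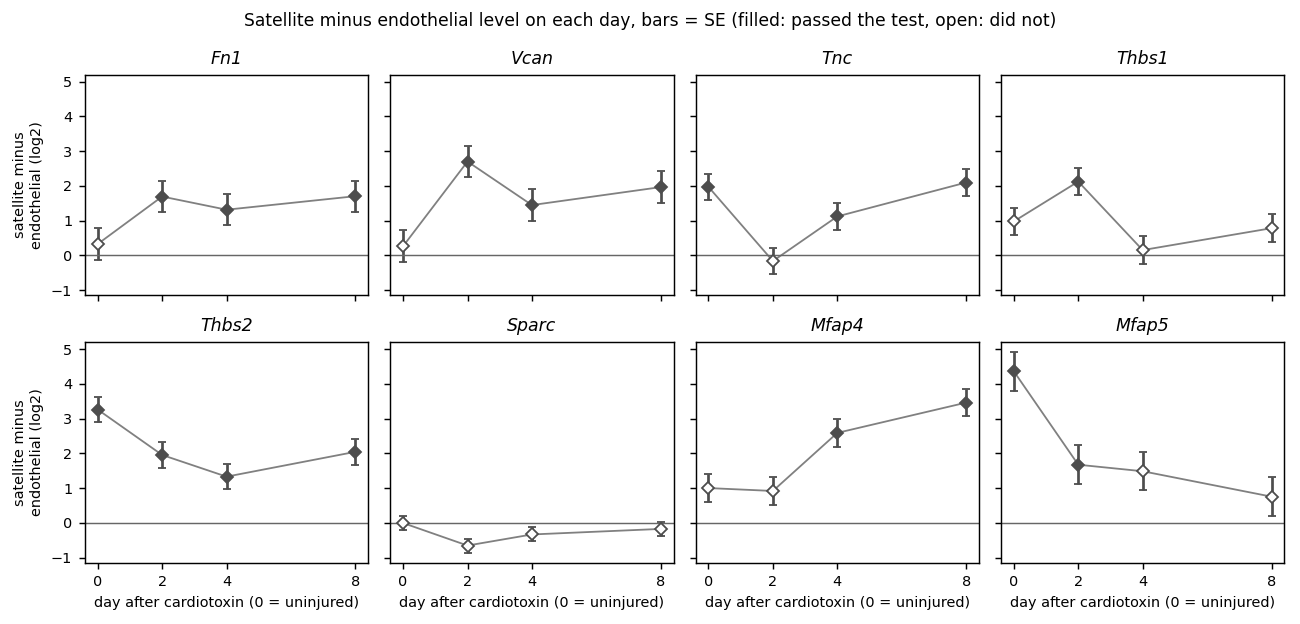
Satellite minus endothelial log2 level (y axis) of each member by day after cardiotoxin (x axis), with bars for the SE of the fit, filled symbols for calls and open ones for the rest. Mfap5 goes from 4.36 on day 0 to 0.75 on day 8, and Mfap4 from 1.00 to 3.46.

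The difference in response is the satellite change from day 0 minus the endothelial one. On day 2 Vcan rose more in satellite cells, 1 of 8 members against 6.44% of all genes, and Tnc and Mfap5 were on the lower side, 2 of 8 against 5.03%. On day 4 none was on the higher side against 2.00%, and Thbs2 and Mfap5 were on the lower side, 2 of 8 against 2.24%. On day 8 Mfap4 was on the higher side, 1 of 8 against 1.39%, and Mfap5 on the lower, 1 of 8 against 0.811%. Endothelial Thbs2 and Mfap5 lay near or under the array medians on day 0, at means of 3.73 and 4.14. They had little room to fall there, which limits how their lower-side differences can be read. The differences on day 2 were 2.44, SE 0.65, adjusted p = 0.0165 for Vcan, -2.14, SE 0.53, adjusted p = 0.0115 for Tnc, from rises of 3.67 in endothelial and 1.53 in satellite cells, and -2.69, SE 0.78, adjusted p = 0.0289 for Mfap5. On day 4 they were -1.93, SE 0.52, adjusted p = 0.0377 for Thbs2 and -2.88, SE 0.78, adjusted p = 0.0389 for Mfap5, and on day 8 2.46, SE 0.56, adjusted p = 0.0204 for Mfap4. The Mfap5 difference of day 8 was -3.61, SE 0.78, adjusted p = 0.0146. The medians of the 8 members were -0.37, -0.58 and -0.02 on days 2, 4 and 8, against -0.03, 0.04 and 0.03 over all genes. Fn1 and Thbs1 had day 2 differences of 1.37, SE 0.64, adjusted p = 0.191 and 1.15, SE 0.56, adjusted p = 0.213, which did not pass. Both passed without satellite day 2 replicate 2, at 1.85 (adjusted p = 0.0409) and 1.63 (adjusted p = 0.0314), and Fn1 also without endothelial day 0 replicate 3, at 2.04 (adjusted p = 0.0176).

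These calls also depended on single arrays. Vcan on day 2 was lost without satellite day 2 replicate 1 or 3 or endothelial day 2 replicate 3 (adjusted p 0.0507 to 0.0577). Mfap5 on day 2 was lost without satellite day 0 replicate 2 or 3, endothelial day 0 replicate 3, satellite day 2 replicate 1 or endothelial day 2 replicate 1 or 3 (0.0501 to 0.0897). On day 4 Thbs2 was lost without replicate 1 or 2 of day 0 in either sort, without any array of endothelial day 4, or without satellite day 4 replicate 1 or 3 (0.0521 to 0.104). Mfap5 on day 4 was lost without any array of endothelial day 0, satellite day 0 replicate 2 or 3, satellite day 4 replicate 1 or 2, or endothelial day 4 replicate 1 or 3 (0.0521 to 0.101). Mfap4 on day 8 was lost without endothelial day 0 replicate 2, satellite day 0 replicate 3 or endothelial day 8 replicate 3 (0.0535 to 0.0657). The differences of Tnc on day 2 and Mfap5 on day 8 passed without any single array. Mfap4 on day 4 (limma 1.59, SE 0.56, adjusted p = 0.126) and Vcan on day 8 (1.70, SE 0.65, adjusted p = 0.200) did not pass. Mfap4 passed without satellite day 4 replicate 1, at 2.16 (adjusted p = 0.0110), and Vcan without satellite day 2 replicate 2, at 1.70 (adjusted p = 0.0494).

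Ordered by mean level over the 8 groups, members differed in which group came first. Fn1, Vcan and Thbs1 were highest in the satellite sort on day 2, Tnc on satellite day 4, Mfap4 on satellite day 8 and Sparc in endothelial cells on day 4. Thbs2 and Mfap5 were highest in the uninjured satellite sort. The first and second groups overlapped for Fn1, Vcan, Tnc, Sparc, Mfap4 and Mfap5 but not for Thbs1 and Thbs2. The lowest group was an endothelial one for 7 members, on day 0 for Tnc, Thbs1, Fn1 and Vcan and on day 2 for Thbs2, Mfap4 and Mfap5, and satellite day 2 for Sparc.

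Pearson correlations over the 24 arrays, given as a description because arrays share cell type, day and sort, placed the members in loose pairs. Fn1 and Vcan were at 0.86, and at 0.96 within the 12 satellite arrays but 0.48 within the 12 endothelial ones. Thbs1 and Vcan were at 0.86, Thbs2 and Mfap5 at 0.81 (0.73 within satellite and 0.20 within endothelial arrays). Sparc was at or below 0.22 with each of the others over all arrays, but within endothelial arrays at 0.69 with Tnc, 0.69 with Vcan, 0.68 with Mfap4 and 0.63 with Thbs1. Thbs1 and Thbs2 were at 0.09 overall and -0.75 within satellite arrays. The genes most like Thbs1 over 24 arrays were Lilrb4a (0.94), a receptor of myeloid cells, the chemokine gene Ccl2 (0.93) and Lgmn (0.93). Those most like Mfap4 were H19 (0.95), the myogenic factor gene Myog (0.94) and the cardiac actin gene Actc1 (0.93), and those most like Mfap5 were Slc43a1 (0.88), Ogn (0.87) and Mmp23 (0.86). Thbs2 was most like Apod, Gfra1 and Gsn (0.91, 0.90 and 0.90), Fn1 like Myo5a, S100a4 and the hyaluronan receptor gene Cd44 (0.88, 0.86 and 0.85), and Vcan like Arhgap11a, Jpt1 and Snx5 (0.90 each). Tnc was most like Lmna, Cct2 and Cct5 (0.91 each), and Sparc like Cavin3, Nid2 and Ppic (0.89, 0.89 and 0.88).

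Other matricellular genes, 17 tested of 20 listed, had more falls than rises in the satellite sort against day 0. In satellite cells against day 0, 1 rose and 7 fell on day 2, against 10.9% and 9.67% of all genes, 1 and 5 on day 4 (6.53% and 5.47%), and 0 and 5 on day 8 (4.38% and 2.00%). The list's median was -0.77, -0.33 and -0.13, and from day 2 to day 4 4 of them rose and 1 fell (4.79% and 5.76%). Tnxb, a tenascin of connective tissue, fell by 3.51 on day 2 and stayed low, with log2 differences of -3.51, SE 0.23, adjusted p = 6.14e-10, -4.00 and -3.69, while its relative Tnc rose. Smoc2, a Sparc relative, was lower on day 4 (-1.98) and day 8 (-1.73), and the CCN gene Ccn4 was higher on day 4 (1.82). Tgfbi, a secreted integrin ligand, rose on day 2 (3.49, SE 0.49, adjusted p = 1.43e-05) with values of 11.25, 9.55 and 11.10, again lowest on replicate 2. In endothelial cells 1 rose and 1 fell on day 2 (3.73% and 3.01% of all genes), 3 and 0 on day 4 (3.11% and 2.22%), and 2 and 0 on day 8 (1.11% and 0.946%), with Tgfbi (4.22, SE 0.49, adjusted p = 1.30e-05) and Postn (3.20, SE 0.43, adjusted p = 5.80e-05) leading on day 4.

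Microfibril and elastic fibre genes, 13 tested of 16 listed, were counted in the same way. In satellite cells 1 rose and 7 fell on day 2 (10.9% and 9.67% of all genes), 1 and 4 on day 4 (6.53% and 5.47%), and 0 and 1 on day 8 (4.38% and 2.00%). The latent TGF-beta binding genes Ltbp4 (-2.43, SE 0.29, adjusted p = 1.74e-06) and Ltbp1 (-2.39, SE 0.38, adjusted p = 5.57e-05) and the crosslinking enzyme Loxl1 (-2.18, SE 0.54, adjusted p = 0.00381) fell on day 2. Lox, the related enzyme, rose on day 4 (2.31, SE 0.48, adjusted p = 0.00166), the day Mfap4 rose. In endothelial cells 0 rose and 3 fell on day 2 (3.73% and 3.01%), and 1 rose on day 4 (3.11%; Efemp1, 2.28, SE 0.50, adjusted p = 0.00625).

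Hyaluronan and versican genes, 12 tested of 14, cover the partners and proteases of versican. In satellite cells 2 rose and 3 fell on day 2 (10.9% and 9.67% of all genes), 4 and 1 on day 4 (6.53% and 5.47%), and 4 and 0 on day 8 (4.38% and 2.00%). In endothelial cells these counts were 1 and 2 on day 2 (3.73% and 3.01%), 2 and 1 on day 4 (3.11% and 2.22%), and 2 and 0 on day 8 (1.11% and 0.946%). Cd44, the hyaluronan receptor, rose by 3.15, SE 0.34, adjusted p = 6.56e-07 on day 2, and Adamts5, a protease that cuts versican, fell from 6.97 ± 0.31 to 3.90 ± 0.34 (-3.08, SE 0.38, adjusted p = 2.86e-06). In endothelial cells another versican protease, Adamts4, rose on all 3 days, by 3.47, SE 0.48, adjusted p = 9.71e-05 on day 2, 3.07 on day 4 and 2.56 on day 8, while the hyaluronan synthase Has3 fell on day 2 (-1.78). Cd44 moved with the leukocyte markers and is also a leukocyte gene, and their part was not tested.

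Receptors of matricellular proteins, 18 tested of 19, were counted against day 0 as well. In endothelial cells 2 rose and 1 fell on day 2 (3.73% and 3.01% of all genes) and on day 4 (3.11% and 2.22%), and 0 and 1 on day 8 (1.11% and 0.946%). The subunits of the integrin that binds fibronectin, tenascin C and thrombospondin 1 rose there, Itgb3 by 2.12, SE 0.29, adjusted p = 9.71e-05 and Itgav by 1.35, SE 0.32, adjusted p = 0.00972 on day 2, and 2.08 and 1.17 on day 4, while Itgb5 fell on all 3 days, to -2.06, SE 0.32, adjusted p = 8.51e-04 on day 8. In satellite cells 4 rose and 5 fell on day 2 (10.9% and 9.67%), 3 and 2 on day 4 (6.53% and 5.47%), and 1 and 1 on day 8 (4.38% and 2.00%). Itga4 (3.19, SE 0.44, adjusted p = 1.12e-05), Sdc3 (3.18, SE 0.31, adjusted p = 1.95e-07) and Stab1 (3.11, SE 0.30, adjusted p = 1.15e-07) led on day 2 beside the leukocyte markers, and Itga8 was lower on day 4 (-2.22, SE 0.32, adjusted p = 4.96e-05). Among syndecans at rest, Sdc4 was higher in satellite cells by 4.81, SE 0.43, adjusted p = 3.42e-08 and Sdc2 by 3.78, SE 0.50, adjusted p = 6.45e-06, and Sdc2 was still 4.12 higher on day 8.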

How the data were processed

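The 24 arrays (mouse gene expression arrays) came as 1 table of log2 values deposited by the authors and made by RMA, per the submitters' processing notes; its version is not given in the sources used here. RMA corrects background, quantile-normalizes and summarizes probes, so levels are relative and probe sets cannot be set against each other. Groups were taken from sample titles, which matched the source names in 24 of 24 samples; the cell type field differed from the title in 12 and the time point field in 18.

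Probe sets were named from the platform's annotation. Genes above their array's median on at least 3 arrays were tested with limma 3.58.1 in R 4.3.3, 1 fit over the 8 groups with 16 residual degrees of freedom and Benjamini-Hochberg adjustment over 14064 genes. A call needed an adjusted p under 0.05 and a log2 difference of at least 1. Comparisons were days within a sort, sorts within a day, and the difference of the responses. The code was tested on simulated data. All members were described, and list genes were named by rule: called, and at most 3 per list and comparison by size. The 3 genes most like a member were those of highest Pearson r over the 24 arrays. Pdgfra, Dpt, Pax7, Itga7 and Ptprc, and values of named list genes in other groups, were given as marker values. The members and lists were chosen with earlier results of these data known. The titles name biological replicates but not their animals, so p-values measure only the spread between these samples.

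Alternatives were the filter, centring, array weights, only the arrays compared, adjusted p under 0.01, the replicate block and leaving out each array. Leaving out the 3 satellite day 2 arrays was chosen after seeing the data. Replicate numbers were not treated as pairs.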

Additional observations from a re-analysis of the deposited data

Results flagged for a closer look

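Both sorts were compared with their own day 0, and the difference between the responses passed the limma test for 7 gene and day combinations. On day 2 the satellite response exceeded the endothelial one by 2.44 for Vcan, and was below it for Tnc (-2.14) and Mfap5 (-2.69). On day 4 it was lower for Thbs2 (-1.93) and Mfap5 (-2.88). On day 8 it was higher for Mfap4 (2.46) and lower for Mfap5 (-3.61). The day 2 values rest on satellite arrays whose satellite cell markers were low and leukocyte markers high, and the part of these was not tested. Endothelial Thbs2 and Mfap5 lay near or under the array medians on day 0 and had little room to fall.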

How the results depend on the processing

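Of 54 called gene results, 36 kept their side of the threshold under every alternative other than the stricter p, 39 did so on leaving out each array in turn, and none of 136 gene results reversed. Counts of called members changed as follows; the cause was not tested. Satellite against endothelial on day 4 went from 5 to 2 with no filter, 2 with arrays centred on the median, 3 with only the arrays compared, 3 with the replicate block and 1 at an adjusted p under 0.01, and ran from 1 to 5 on leaving out single arrays. On day 2 it went from 5 to 3 with only the arrays compared and 3 at an adjusted p under 0.01 (3 to 5), and on day 0 from 3 to 5 with arrays centred on the 75th percentile (3 to 4). The response difference of day 4 went from 2 to 0 with no filter, 1 median-centred, 1 with only the arrays compared, 1 with the replicate block and 0 at an adjusted p under 0.01 (0 to 2). That of day 2 went from 3 to 0 at an adjusted p under 0.01 (1 to 5), and that of day 8 from 2 to 1 with the replicate block and 0 at an adjusted p under 0.01 (1 to 3). Endothelial day 4 against day 2 went from 1 to 0 with only the arrays compared and 0 at an adjusted p under 0.01 (0 to 1), and day 8 against day 0 ran from 1 to 2. Endothelial day 8 against day 4 went from 0 to 1 with array weights and 1 without the satellite day 2 arrays (0 to 1). Satellite day 8 against day 4 went from 0 to 1 without those arrays (0 to 1), and day 4 against day 2 from 2 to 4 with array weights (2 to 4).

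Of 12 same-number pairs 4 correlated over 0.1 (range -0.06 to 0.20), and 11 of 12 carry the same number in their array names. The replicate block added 0 calls of 136 and ended 4: satellite against endothelial on day 4 for Tnc (adjusted p = 0.0519) and Vcan (0.0520), and the response differences of Thbs2 on day 4 (0.0878) and Mfap4 on day 8 (0.0543). As a random block it changed 0 (correlation 0.05). Centring moved the median of all genes by up to -0.16 (median, sorts on day 0). The mean over probe sets of a gene was not run, since each member has 1. With 3 arrays a group, the number of arrays limits the precision, and levels near background limit the sizes for endothelial Thbs2 on all days, Mfap4 on days 0 and 2 in both sorts, endothelial Mfap5 on days 0 and 2, Vcan on day 0 in both sorts and endothelial Tnc on day 0.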
